A study of Mus musculus with 108 samples.

Results

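Arntl (the gene of the protein BMAL1), Clock and Npas2 form the activating arm of the circadian clock, and all 3 were found by their symbols among the 55416 genes of the deposited count table. Sequencing of RNA covered liver, kidney and WAT (white adipose tissue). The mice were labelled Bmal1-flox (WT in the sample titles), where flox names a gene flanked by sites for Cre recombinase, or Bmal1-iKO (KO in the titles). All were male, of a strain given as C57BL/J, 8 to 12 weeks old, kept in 12 h of light and 12 h of dark with free food and water, and untreated. The study's title places the clock in the intestine, but the labels name neither the cells in which the gene was deleted nor the driver of the deletion. Tissue was taken 2, 6, 10, 14, 18 and 22 h after lights on (ZT2 to ZT22), with 3 libraries per tissue, genotype and time, which makes 36 libraries per tissue. A library is named by its time and replicate number, and the same numbers recur in the 3 tissues. The labels do not say that the libraries of a group came from separate animals, and p-values then speak only of the spread among libraries.

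BMAL1 is a basic helix-loop-helix PAS protein that binds DNA as a pair with CLOCK or with its close relative NPAS2. The pair binds E-boxes and switches on the Period and Cryptochrome genes, whose proteins then block it, and the genes of the REV-ERB receptors, which repress Arntl through ROR elements in its promoter. NPAS2 can stand in for CLOCK in peripheral tissues, and BMAL1 has no such stand-in in most of them, so that loss of Arntl alone stops the clock of a cell. In liver this loop times glucose, lipid and bile acid metabolism.

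Arntl (ENSMUSG00000055116) lies on the plus strand of mouse chromosome 7 from 113207465 to 113314126 (GRCm38, also the span in the deposited table), Clock (ENSMUSG00000029238) on the minus strand of chromosome 5 from 76209868 to 76304792, and Npas2 (ENSMUSG00000026077) on the plus strand of chromosome 1 from 39193731 to 39363236. The promoters of Arntl and Npas2 are shown because these are the members whose levels moved with the time of day. Each runs 5′ to 3′ from 250 bases before to 50 bases after a RefSeq transcript start (GRCm38.p6). The Arntl window is chr7:113207261-113207560 and the Npas2 window is chr1:39194022-39194321, both on the plus strand, and capitals mark ROR elements.
Arntl promoter: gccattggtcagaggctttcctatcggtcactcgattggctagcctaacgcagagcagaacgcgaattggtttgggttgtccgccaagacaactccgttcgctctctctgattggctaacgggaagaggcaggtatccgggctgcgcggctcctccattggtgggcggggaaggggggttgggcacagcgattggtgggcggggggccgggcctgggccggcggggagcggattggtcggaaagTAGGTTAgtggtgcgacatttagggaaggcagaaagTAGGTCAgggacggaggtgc
Npas2 promoter: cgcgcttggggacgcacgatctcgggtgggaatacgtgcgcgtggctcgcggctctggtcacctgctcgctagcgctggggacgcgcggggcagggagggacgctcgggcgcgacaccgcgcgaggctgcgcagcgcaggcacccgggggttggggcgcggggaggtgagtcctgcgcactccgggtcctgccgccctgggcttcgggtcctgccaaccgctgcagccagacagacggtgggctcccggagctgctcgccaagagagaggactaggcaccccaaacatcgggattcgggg
In the Arntl window the variant TAGGTTA began at base -6 and the element TAGGTCA at base 31, counted from 1 at the transcript start. Counted from another RefSeq start of Arntl, the same TAGGTTA lies at base 41. TAGGTCA occurred in 2.61% and TAGGTTA in 1.44% of the 32851 RefSeq promoter windows of the same length, on either strand. The Npas2 window and the 3 Clock windows held neither of these, nor the E-box CACGTG (7.15% of windows), its variant CACGTT (4.68%) or the D-box TTATGTAA (0.938%). These motifs did not overlap one another, and a missing match says only that these letters are not in the window.

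Libraries that stood apart are given before the results. Total counts per library ran from 14428000 to 23428000 in liver, 13876000 to 22123000 in kidney and 14103000 to 24415000 in WAT. Defining markers of each tissue were high, with a mean log2 CPM (counts scaled to the same library total) of 11.3 to 14.2 over 6 hepatocyte genes in liver and 8.95 to 10.4 over 6 tubule genes in kidney, but 3.84 to 11.4 over 6 adipocyte genes in WAT. In 13 WAT libraries (6 flox, 7 iKO) epididymis genes were at 10.6 to 12.2, against -2.89 to 5.74 in the other 23. In liver, 11 libraries (2 flox, 9 iKO) had a mean of 3.53 to 4.24 over 8 cell cycle genes, against -1.31 to 1.04 in the other 25, and in them macrophage and interferon genes were also high (7.83 to 9.32 and 6.45 to 8.18). A pair of iKO numbers (ZT18 number 1 and ZT22 number 3) had Xist in liver and kidney with Y-linked genes at or near 0 reads, which goes against the label male. In WAT, ZT18 number 1 was alike, with Xist at a log2 CPM of 8.19 and the Y-linked mean at -3.36. The WAT library of ZT22 number 3 had Y-linked genes at 4.93 with Xist at 3.45, unlike liver and kidney of that number. For 3 numbers (flox ZT6 number 1, iKO ZT6 number 2, iKO ZT22 number 3) a clock time read from 10 other clock genes lay 5 h or more from the label in at least 2 tissues. Results are also given without these libraries where that changed a call. The cell cycle and Xist numbers were flagged in liver, and they and the clock time numbers were left out in all tissues. Epididymis libraries were left out in WAT alone.

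In the flox mice Clock was the most abundant of the members per length in every tissue, and Npas2 was lowest in liver. Between genes, levels are compared in RPKM (CPM divided by the gene's exon length in kilobases), here on 1 scale over the 3 tissues. The median over 18 flox libraries of Clock was 3.15 RPKM in liver, 3.28 in kidney and 3.88 in WAT, that of Arntl 1.80, 1.28 and 1.06, and that of Npas2 0.204, 1.28 and 0.904. At single hours the mean RPKM of Npas2 in kidney and that of Arntl in liver lay above Clock, while in CPM both lay below it. Npas2 reached a mean of 4.17 ± 0.94 RPKM (SD, n = 3) in kidney at ZT18, where Clock was at 3.46 ± 0.48, and Arntl reached 4.36 ± 0.92 in liver at ZT22, where Clock was at 3.62 ± 0.47. In WAT neither came level with it, as at ZT18 Arntl was at 2.60 ± 1.47, Npas2 at 2.12 ± 1.35 and Clock at 4.51 ± 1.96.

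As an average of log2 levels over the day, Npas2, the partner that can replace CLOCK, was lower in flox liver than in both other tissues. In mean RPKM flox liver lay below flox kidney at all 6 times. It lay below flox WAT at ZT2, ZT6 and ZT10, as at ZT10 with 0.018 against 0.434. At ZT14, ZT18 and ZT22 it did not, with 0.956, 3.21 and 1.64 in liver against 0.834, 2.12 and 1.62 in WAT. Over the 6 times the difference in log2 level was -1.93 for liver minus kidney (SE 0.37, adjusted p = 1.4e-05) and -1.51 for liver minus WAT (SE 0.36, adjusted p = 0.000327), by edgeR's quasi-likelihood test with Benjamini-Hochberg adjustment over all genes tested, which holds for every adjusted p here. Kidney and WAT, next to each other in that order, did not differ beyond their spread (0.43, edgeR adjusted p = 0.25). An adjusted p under 0.05 is written as called. Such calls were common, as 66% of 21237 genes were called between liver and kidney, 77% between liver and WAT and 65.9% between kidney and WAT. In bulk samples fewer cells of a type and less RNA per cell cannot be told apart.

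Arntl was the reverse of Npas2, highest in liver, but its order depended on the scaling. It was 0.58 higher on the log2 scale in liver than in kidney (SE 0.19, edgeR adjusted p = 0.00586) and 0.42 higher than in WAT (edgeR adjusted p = 0.0378). The latter was not called without the 13 epididymis libraries (0.25, edgeR adjusted p = 0.316), with DESeq2's size factors (0.38, 0.0576), with no filter (0.30, 0.226) or in a fit of all flox and iKO libraries (0.41, 0.0747), and was called in 38 of 54 fits with 1 library left out. With library size alone in place of TMM (trimmed mean of M-values) scaling, the same differences turned to -0.29 (edgeR adjusted p = 0.196) and -0.68 (0.0019). That scaling moved the median of all genes for liver minus kidney from -0.06 to -0.86 and for liver minus WAT from -0.33 to -1.45. Npas2 stayed lower in liver under it. Clock was higher in WAT than in liver (liver minus WAT -0.36, edgeR adjusted p = 0.000917) and than in kidney (kidney minus WAT -0.30, edgeR adjusted p = 0.00637). Both differences lay near the medians of all genes, which were -0.33 for liver minus WAT and -0.21 for kidney minus WAT. They are therefore not particular to Clock. In WAT 13 libraries held epididymis RNA, whose part in this was not tested beyond leaving them out, which kept both calls.

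Arntl, the gene named in the genotype, had no called fall in the iKO libraries of any of the 3 tissues when averaged over the day. In liver its lowest, median and highest values over 18 flox libraries were 2.18, 9.35 and 24.2 CPM, against 2.05, 7.66 and 20 in iKO. In kidney they were 1.27, 10.7 and 35.6 CPM in flox and 2.02, 12.8 and 36.4 in iKO. In WAT they were 2.83, 10.8 and 40.4 CPM in flox and 4.43, 9.27 and 30.3 in iKO. The ranges of the genotypes overlapped nearly whole. The difference of iKO minus flox, as the mean of the 6 log2 differences, was -0.10 in liver (95% interval -0.47 to 0.27, edgeR adjusted p = 0.763), 0.28 in kidney (-0.14 to 0.71, 0.741) and -0.09 in WAT (-0.54 to 0.37, 1). Reads are counted over the whole gene, and which exons were deleted is not given in the sources used here. An antisense gene, Gm45355, overlaps an Arntl exon and had 0 to 6 counts per library, while Arntl had 20 to 831, and without a known strand setting their reads cannot be told apart.

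**Figure D1:**
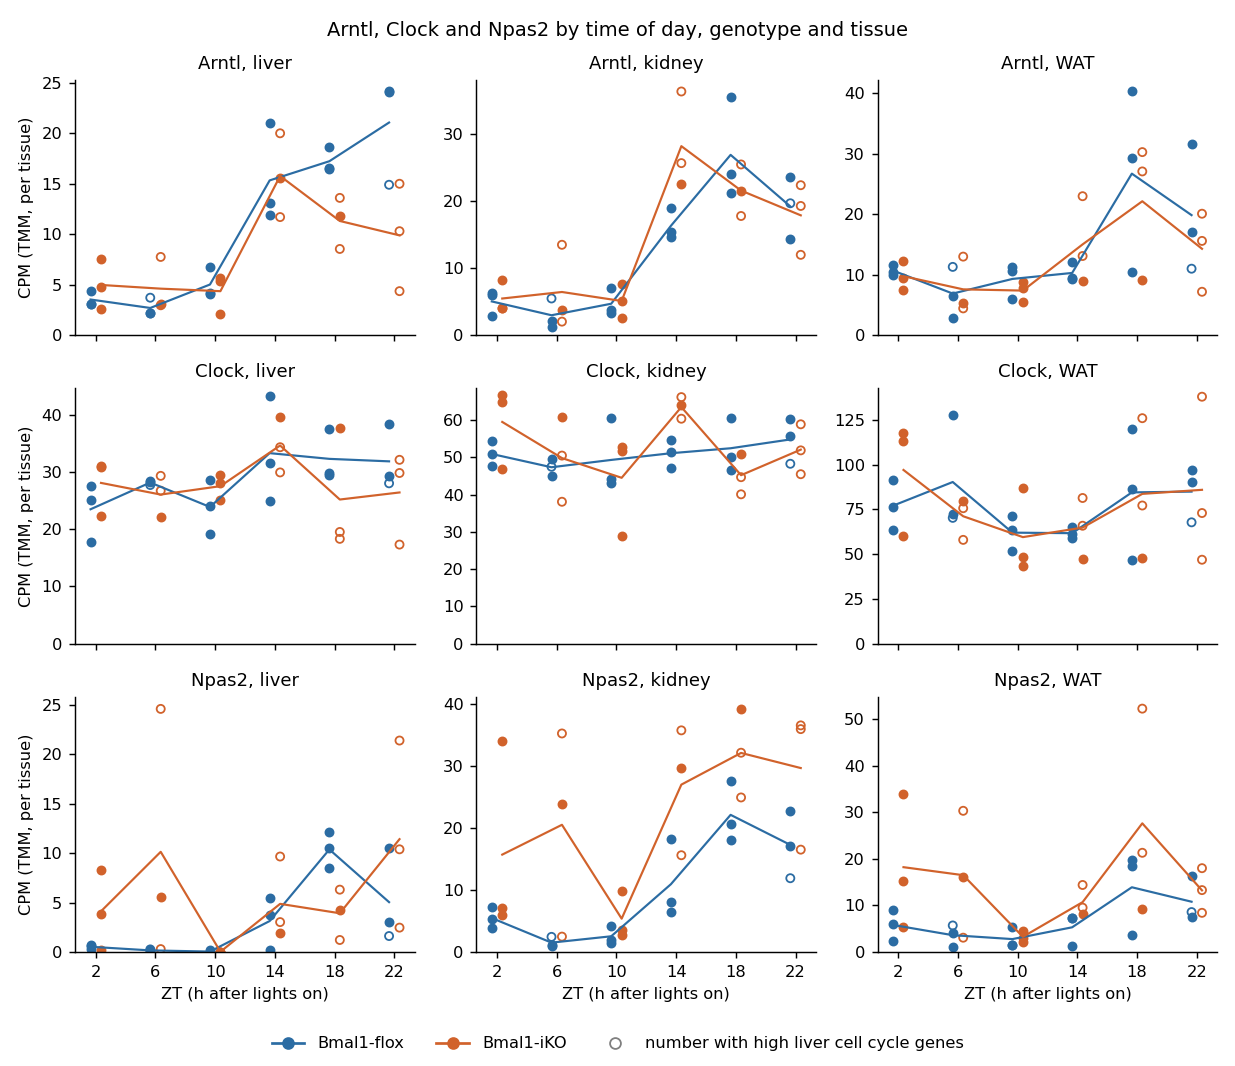
Level of Arntl, Clock and Npas2 (CPM, axes from 0, scaled within each tissue) in each library against hours after lights on, by tissue and genotype. Points are single libraries, lines join group means (n = 3), and open symbols are the 11 numbers whose liver library had high cell cycle genes. In flox liver and kidney Arntl and Npas2 are low from ZT2 to ZT10 and high from ZT14 to ZT22, and in kidney the iKO means of Npas2 lie above the flox means at all 6 times.

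Time by time, the genotypes overlapped for Arntl at most times, and the iKO values in liver were the lower ones late in the dark. At ZT18 the flox libraries had 18.6, 16.5 and 16.6 CPM and the iKO libraries 13.6, 8.54 and 11.8, with no overlap. At ZT22 the flox libraries had 14.9, 24.1 and 24.2 CPM and the iKO libraries 15.0, 10.3 and 4.36, where the groups overlapped by 1 library. The difference at ZT22 was -1.09 on the log2 scale, with an unadjusted p of 0.0192 and an edgeR adjusted p of 1. Numbers 1 and 2 of iKO liver at ZT18 and all 3 at ZT22 were among the libraries with high cell cycle genes, and the part of that in these values was not tested. In kidney the direction at ZT14 was the opposite, with 15.4, 19.0 and 14.6 CPM in flox and 36.4, 25.7 and 22.6 in iKO, again with no overlap. In WAT the genotypes overlapped at every time, as at ZT18 with 10.5, 29.3 and 40.4 CPM in flox and 30.3, 27.1 and 9.09 in iKO.

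Npas2 was higher in the iKO kidney, and this was the one genotype difference of the members that was called. Its lowest, median and highest values were 0.95, 6.85 and 27.6 CPM in flox and 2.50, 24.4 and 39.2 in iKO, and the iKO mean was higher at 6 of 6 times. The difference was 1.49 on the log2 scale (SE 0.28, 95% interval 0.90 to 2.07, edgeR adjusted p = 0.0251), rank 12 by p of 17630 genes. The call is a rare one in kidney, where 0.164% of genes were called and 0.0737% were higher in iKO. It was not called without the pair of numbers with Xist (1.46, edgeR adjusted p = 0.058), nor without flox ZT6 number 3 (1.28 to 1.59 over all single libraries left out, edgeR adjusted p = 0.0596 without that one), flox ZT18 number 1 (0.0515) or iKO ZT2 number 1 (0.051). Without the 11 numbers it was 1.87, but no iKO library of ZT22 was left, and at ZT6, ZT14 and ZT18 only iKO number 3 was left.

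The kidney difference was widest at ZT6, and whether it varied over the day was not called (unadjusted p = 0.0549, edgeR adjusted p = 0.628). At ZT6 the flox libraries had 2.46, 0.95 and 1.18 CPM and the iKO libraries 2.50, 35.2 and 23.8, so 2 iKO libraries lay far above and 1 just above the highest flox library. At ZT2 the values were 5.41, 3.84 and 7.20 CPM in flox and 34.0, 7.11 and 5.99 in iKO, where 1 iKO library stood apart. At ZT10, where flox Npas2 was also low, they were 1.52, 1.89 and 4.25 CPM in flox and 2.70, 3.59 and 9.88 in iKO, and the log2 difference was 1.07, beside 1.30 at ZT14. At the peak, ZT18, they were 20.7, 27.6 and 18 CPM in flox and 32.1, 24.9 and 39.2 in iKO, and the groups overlapped. The difference at ZT6 was 3.71 on the log2 scale (95% interval 2.13 to 5.29), the smallest p of all genes at that time (5.2e-05), but not called by edgeR (adjusted p = 0.734), and called by DESeq2 (adjusted p = 0.000169). Without iKO ZT6 number 1 edgeR called it (4.24, adjusted p = 0.0303).

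Other measures stood apart in single kidney libraries of both genotypes. The mean over 8 interferon genes in kidney had a median log2 CPM of 4.09 in iKO and 3.05 in flox (ranges 2.01 to 7.58 and 2.16 to 6.81), while the tubule mean was 10.1 in both. The clock time read from other genes was 15.25 h for iKO ZT6 number 2 and 9.5 h for number 3 in kidney, whose Npas2 was 35.2 and 23.8 CPM and whose Arntl was 13.5 and 3.82. Among the flox kidneys, ZT6 number 1 read 11.75 h, with an interferon mean of 6.81 and Npas2 at 2.46 CPM. The part of these measures in the difference was not tested beyond leaving out the libraries named.

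Npas2 leaned the same way in liver and WAT without being called. In liver its lowest, median and highest values were 0, 0.66 and 12.2 CPM in flox and 0, 3.46 and 24.6 in iKO, and the iKO mean was higher at 4 of 6 times. In WAT they were 1.16, 5.85 and 19.7 CPM in flox and 2.28, 11.4 and 52.2 in iKO, and the iKO mean was higher at 6 of 6 times. The average difference was 1.41 in liver (SE 0.67, 95% interval 0.04 to 2.79, edgeR adjusted p = 0.191) and 1.06 in WAT (SE 0.34, 0.37 to 1.75, adjusted p = 1). In liver 2.64% of genes were called and in WAT 0%. DESeq2 called the liver difference (1.44, adjusted p = 0.0488), among 1609 genes that it called there.

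Liver Npas2 fell to a few reads at its trough, which limits what can be said there. At ZT10 the 3 flox libraries held 3 reads together and the 3 iKO libraries 2, so both groups lay near the floor, where 3 reads were worth 0.178 to 0.189 CPM in the libraries with 0. At ZT6 the flox libraries had 0.278, 0 and 0.253 CPM and the iKO libraries 0.310, 24.6 and 5.53, and again 1 iKO library was at the flox level. The highest, iKO ZT6 number 2, is the number whose other clock genes read 21.25 h in liver, 15.25 h in kidney and 15.75 h in WAT. At ZT18 the order turned, with 8.46, 12.2 and 10.5 CPM in flox and 6.32, 1.23 and 4.25 in iKO, which did not overlap. DESeq2 called ZT6 (5.80, adjusted p = 0.00843), edgeR did not (5.66, adjusted p = 0.977).

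In WAT the iKO libraries of Npas2 lay above the flox libraries at ZT14 with no overlap, at 9.54, 14.4 and 8.22 CPM against 7.24, 7.38 and 1.36. At ZT6 they were at 3.10, 30.3 and 16.1 CPM against 5.72, 4.03 and 1.16, where the lowest iKO library was inside the flox range.

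Clock, the other partner of BMAL1, did not differ by genotype beyond its spread. Its lowest, median and highest values in liver were 17.7, 28.4 and 43.3 CPM in flox and 17.3, 29.4 and 39.6 in iKO, in kidney 43.1, 49.9 and 60.6 against 29.0, 51.8 and 66.7, and in WAT 47.0, 70.8 and 128 against 43.2, 74.4 and 138. The average difference was -0.04 for liver (95% interval -0.25 to 0.18), 0.03 for kidney (-0.13 to 0.19) and 0.00 for WAT (-0.33 to 0.33). The interval is narrowest in kidney and widest in WAT. At ZT14 in kidney the iKO libraries (66.2, 60.4 and 64.0 CPM) lay above the flox libraries (47.1, 54.8 and 51.5), which was not called.

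**Figure D2:**
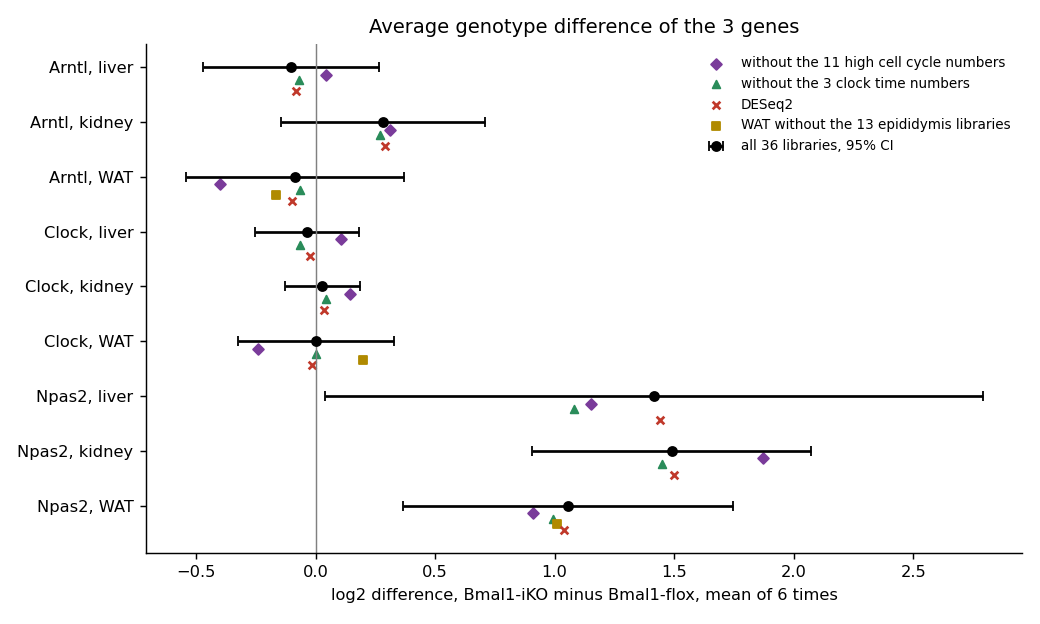
Difference of iKO minus flox (log2, mean of the 6 times) for each member and tissue, with 95% intervals over all 36 libraries of a tissue (black) and the value alone for other settings (coloured symbols). Without the 11 numbers no iKO library of ZT22 is left, so that value is over 5 times. At ZT6, ZT14 and ZT18 only iKO number 3 is left in it. Kidney Npas2 lies at 1.49 with its whole interval above 0, while the intervals of Arntl and Clock over all libraries cross 0.

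Of 54 single comparisons of a member at 1 time in 1 tissue, edgeR called 0, 7 had an unadjusted p under 0.05 (5 of them Npas2, 6 of them higher in iKO), and DESeq2 called 2. Over all genes, 570 (ZT22) to 3293 (ZT14) of 16582 had an unadjusted edgeR p under 0.05 in liver. In kidney these were 513 (ZT10) to 2495 (ZT18) of 17630, and in WAT 221 (ZT22) to 1241 (ZT10) of 21402. The groups did not overlap in 7 of the 54. How often this held over all genes was not counted, so the 7 cannot be set against a background. Groups of so few libraries can separate without a true difference, and each lack of overlap, here and above, is given only as a description. By edgeR few genes were called at single times in any tissue. In liver 0.0362% were called at ZT18 and 0% at ZT2, ZT6, ZT10, ZT14 and ZT22, in kidney 0.0113% at ZT22 and 0% at the other 5 times, and in WAT 0% at all 6. DESeq2 called more, from 4 genes at ZT6 to 512 at ZT14 and 1389 at ZT18 in liver, from 0 at ZT2 to 133 at ZT18 in kidney and from 31 at ZT22 to 84 at ZT10 in WAT. At ZT6, where it called Npas2, it called 4 genes in liver and 1 in kidney. Whether the difference itself varied over the day was tested jointly, and no member was called in any tissue by edgeR or DESeq2. By edgeR 0% of genes were called in this test in each tissue, while DESeq2 called 43 genes in liver, 55 in kidney and 0 in WAT. The lowest unadjusted p was 0.0117 for liver Npas2 (edgeR adjusted p = 0.76), and no other member was under 0.05. In liver 1069 of 16582 genes were under 0.05 in this edgeR test.

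Arntl and Npas2 had a called daily rhythm in flox liver and kidney. Clock did not. In flox liver Arntl had 3.71, 2.18 and 2.19 CPM at ZT6, and in flox kidney it had 5.48, 1.27 and 2.17 at ZT6 and 24, 21.2 and 35.6 at ZT18. The highest of the ZT6 libraries in both tissues was number 1, whose other clock genes gave 0 h in liver and 11.75 h in kidney. A 24 h cosine was fitted per genotype, whose amplitude is the log2 distance from the mean to the peak. In flox liver Arntl had an amplitude of 1.62 ± 0.20 (SE) with its peak at 18.1 ± 0.48 h (edgeR adjusted p = 0.000815), rank 2 by p of 16582 genes, and in flox kidney 1.68 ± 0.22 at 18.2 ± 0.50 h (edgeR adjusted p = 0.000576), rank 3 of 17630. Npas2 peaked within 1 h of it, at 18.8 ± 0.71 h in liver with an amplitude of 3.34 ± 0.68 (edgeR adjusted p = 0.0283) and at 19.0 ± 0.58 h in kidney with 1.95 ± 0.30 (edgeR adjusted p = 0.00296). Rhythm was called in 0.772% of genes in flox liver and 5.07% in flox kidney. Clock had amplitudes of 0.214 in flox liver and 0.086 in flox kidney and was not called. The liver call of Npas2 was lost in 8 of 36 fits with 1 library left out, in each case a flox library of ZT2, ZT6, ZT10 or ZT18 (3.17 to 3.66, highest edgeR adjusted p = 0.0741), and with no filter on low counts (0.0613).

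In iKO mice Arntl kept a called rhythm in kidney. Its amplitude there was 1.28 ± 0.22 with the peak at 17.3 ± 0.65 h (edgeR adjusted p = 0.00662), against a background of 4.22% of genes. In iKO liver, where 0.0844% of genes were called, Arntl had an amplitude of 0.93 ± 0.20 with the peak at 17.2 ± 0.83 h and was not called (edgeR adjusted p = 0.129). It was called there by DESeq2 (0.0153), without the 3 numbers of odd clock time (1.21, edgeR adjusted p = 0.0123) and without iKO ZT6 number 2 alone (0.0345). DESeq2 called 213 genes rhythmic in iKO liver. Npas2 had an amplitude of 0.945 in iKO liver (edgeR adjusted p = 0.755) and 0.72 in iKO kidney (0.238), and in kidney it was called without iKO ZT6 number 2 (0.0497). With time as a factor in place of the cosine, edgeR called Arntl (0.0235) and Npas2 (0.0399) in iKO liver, where that setting called 1916 genes.

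**Figure D3:**
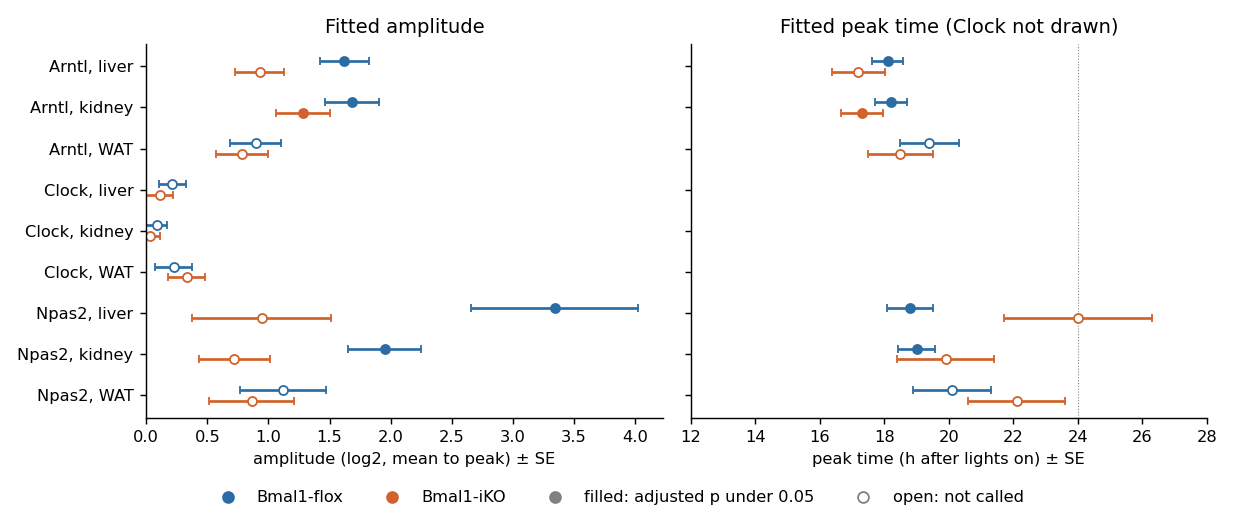
Amplitude (log2, left) and peak time (hours after lights on, right) of the fitted 24 h cosine for each member, tissue and genotype, with standard errors as bars. Filled symbols are called at an adjusted p under 0.05, and the peak of Clock, which was not called, is not drawn. Flox Arntl and Npas2 are called in liver and kidney with peaks between 18.1 and 19.0 h, and iKO Arntl in kidney.

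The change of rhythm between genotypes was tested itself, amplitude and peak together, and called for no member. The p-values here are of this joint test, while each amplitude interval is of the amplitude difference alone. The amplitude difference of iKO minus flox for Npas2 was -2.40 in liver (95% interval of the difference -4.21 to -0.59, unadjusted p = 0.00177, edgeR adjusted p = 0.832) and -1.23 in kidney (-2.07 to -0.39, unadjusted p = 0.0159, edgeR adjusted p = 1). That of Arntl differed by -0.69 in liver (-1.27 to -0.11, unadjusted p = 0.0526) and -0.40 in kidney (-1.03 to 0.23). The peak of Npas2 differed by 5.17 h in liver (0.26 to 10.1) and 0.95 h in kidney (-2.35 to 4.25). Its iKO rhythm was called in neither tissue. For Arntl the peak difference was -0.85 h in liver (-2.79 to 1.10) and -0.90 h in kidney (-2.56 to 0.77). Of the 9 member and tissue pairs 2 had an unadjusted p under 0.05 by edgeR and DESeq2 called 0. Over all genes, 794 of 16582 in liver, 378 of 17630 in kidney and 674 of 21402 in WAT were under 0.05 by edgeR before adjustment. By edgeR 0% of genes were called in each tissue, and DESeq2 called 3 genes in liver and 0 in kidney and WAT.

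In WAT no member had a rhythm called by edgeR, nor did any gene (0% in flox and 0% in iKO). Arntl had an amplitude of 0.89 with the peak at 19.4 h in flox (edgeR adjusted p = 0.205) and 0.78 at 18.5 h in iKO, and Npas2 1.12 at 20.1 h and 0.86 at 22.1 h. Of the 6 pairs of member and genotype 3 had an unadjusted p under 0.05, Arntl in both genotypes and Npas2 in flox. Of all 21402 genes, 2074 in flox and 809 in iKO were under 0.05 by edgeR before adjustment. DESeq2 called flox Arntl (0.87, adjusted p = 0.0374), among 116 genes that it called there.

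The daily swing of Npas2 was larger in flox liver than in flox WAT. In 1 fit over the 3 tissues its amplitude was 3.36 for liver, 1.97 for kidney and 1.11 for WAT. The difference of liver minus WAT was 2.25 (95% interval 1.25 to 3.25, edgeR adjusted p = 0.0324), where 0.744% of genes were called. The test takes amplitude and peak together. It was not called with library size alone (edgeR adjusted p = 0.0597), in a fit of all flox and iKO libraries (0.122) or without liver flox ZT18 number 2 (0.0541). Liver minus kidney was 1.38 (0.38 to 2.39, edgeR adjusted p = 0.417; 0% of genes called) and kidney minus WAT 0.87 (-0.04 to 1.78, edgeR adjusted p = 0.773; 0.00471% called). Arntl had amplitudes of 1.62, 1.69 and 0.89 in the same order, and liver minus WAT was 0.73 (0.19 to 1.28, edgeR adjusted p = 0.199). The peak of liver minus WAT was -1.26 h for Npas2 (-3.61 to 1.09) and -1.16 h for Arntl (-3.03 to 0.72), and these intervals cross 0.

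Per length, Npas2 was the less abundant partner transcript beside Clock in most flox kidneys and the more abundant in 10 of 18 iKO kidneys. The ratio of Npas2 to Clock in RPKM had a median of 0.400 in flox kidney, with 3 of 18 libraries above 1, and 1.22 in iKO kidney, with 10 of 18. At ZT18 it was 1.27 in flox and 2.20 in iKO, where 3 of 3 libraries were above 1. In liver the median was 0.0724 in flox (3 of 18 above 1) and 0.341 in iKO (2 of 18), and in WAT 0.235 (0 of 18) and 0.449 (2 of 18). These are transcript ratios, given as a description. They rest on the deposited lengths over all exons, 13727 bases for Clock and 4791 for Npas2. In CPM, without the lengths, Npas2 lay below Clock in every library, with medians of 24.4 and 51.8 in iKO kidney. Which transcripts of each gene were present was not tested. The ratio of Arntl to the sum of its partners had a median of 0.445 in flox and 0.337 in iKO liver, 0.200 and 0.189 in kidney, and 0.245 and 0.194 in WAT.

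**Figure D4:**
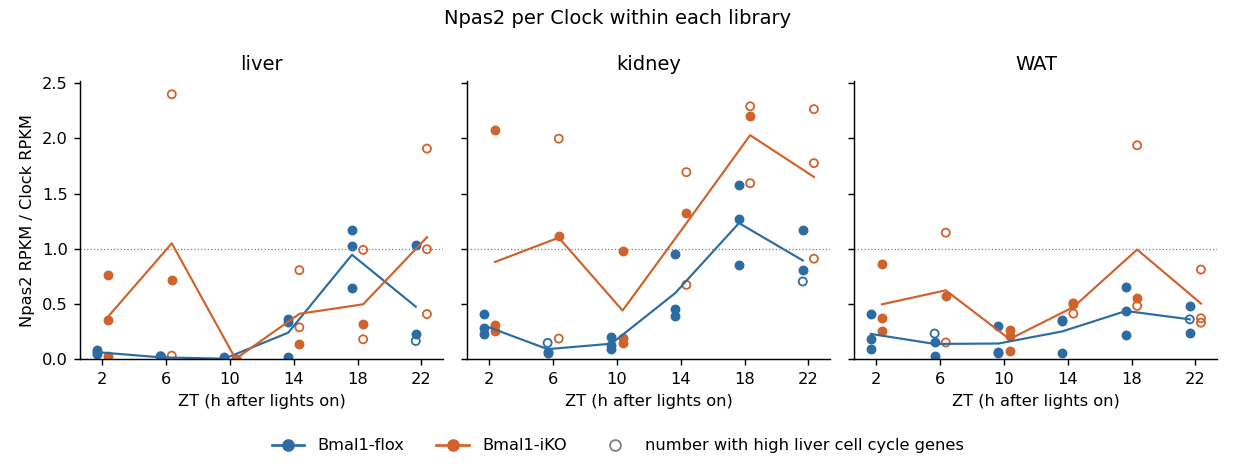
Ratio of Npas2 to Clock (both in RPKM, axis from 0) in each library against hours after lights on, by tissue and genotype. Points are libraries, solid lines join group means (n = 3), the dotted line marks a ratio of 1, and open symbols are the 11 numbers with high liver cell cycle genes. In kidney 10 of 18 iKO libraries lie above 1 against 3 of 18 flox libraries.

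The other genes of the loop that were called rhythmic in liver peaked at other hours than Arntl. Of 17 repressors, receptors and output factors (16 tested in liver), 6 were called in flox liver and 4 in iKO liver, 12 in flox kidney and 10 in iKO kidney, and 0 in WAT of either genotype. Of all genes tested 0.772% and 0.0844% were called in flox and iKO liver, 5.07% and 4.22% in flox and iKO kidney, and 0% in WAT. In flox liver the called genes peaked between 3.66 and 15.5 h, away from Arntl at 18.1 h. Nr1d1 and Nr1d2, the REV-ERB receptors that repress Arntl, peaked at 3.66 and 5.38 h in flox liver and at 3.72 and 5.69 h in iKO liver. The repressor Per3 peaked at 8.02 h in flox liver and 6.35 h in iKO liver, and the output factor Dbp at 6.43 and 5.53 h. Cry1, another repressor, was called in flox liver (15.5 h, amplitude 1.62, edgeR adjusted p = 0.00234) and not in iKO liver (0.65, 0.364). In flox kidney Per3 peaked at 7.51 h, Nr1d1 at 3.32 h, Dbp at 6.72 h and Nfil3, a repressor of output genes, at 16.2 h, and in iKO kidney at 6.92, 2.67, 6.69 and 15.9 h. The change of rhythm between genotypes was called for none of these genes in the 3 tissues. Of 11 cofactors 1 was called rhythmic, Csnk1d in iKO kidney (4.22% of all genes), and of 16 bHLH-PAS relatives 0.

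On average over the day few of the listed genes differed by genotype. In liver 1 of 6 output factors, Bhlhe40, a repressor that competes for E-boxes, was lower in iKO (-0.75, SE 0.20, edgeR adjusted p = 0.0418), and 1 of 10 tested bHLH-PAS relatives, Arntl2, the closest relative of Arntl, was lower too (-1.37, SE 0.35, adjusted p = 0.0307). Of all genes 2.64% were called in liver, 0.164% in kidney and 0% in WAT. High cell cycle and macrophage genes, which 9 of 18 iKO livers and 2 of 18 flox livers had, went with lower hepatocyte means (11.3 to 13.4 against 13.4 to 14.2 in the other livers), and the part of this in both calls was not tested. Arntl2 was at -0.64 in kidney (edgeR adjusted p = 0.163) and 0.26 in WAT (1). No listed repressor, receptor or cofactor was called in any tissue. The median log2 difference of the receptors was -0.34 for liver (4 genes), -0.33 for kidney and -0.40 for WAT (5 genes each), beside 0.00, 0.00 and 0.03 over all genes tested. In the same order it was -0.29, -0.205 and -0.36 for the output factors and -0.35, 0.07 and -0.01 for the repressors.

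Arntl and Npas2 were also set against the clock time of each library, read from Per1, Per2, Per3, Cry1, Ciart, Nr1d1, Nr1d2, Dbp, Tef and Bhlhe41 and so without the members. It is the hour at which a library's 10 genes lay closest to the curves fitted to the other flox libraries of its tissue. The clock time lay within 3 h of the label in 15 of 18 flox and 13 of 18 iKO libraries of liver, 16 and 14 of kidney, and 11 and 11 of WAT. In WAT edgeR called no member rhythmic. In liver, iKO ZT2 number 3 had a clock time of 4.75 h with 8.26 CPM of Npas2. In kidney, iKO ZT2 number 1 had a clock time of 23.5 h with 34.0 CPM of Npas2 and 8.24 CPM of Arntl.

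**Figure D5:**
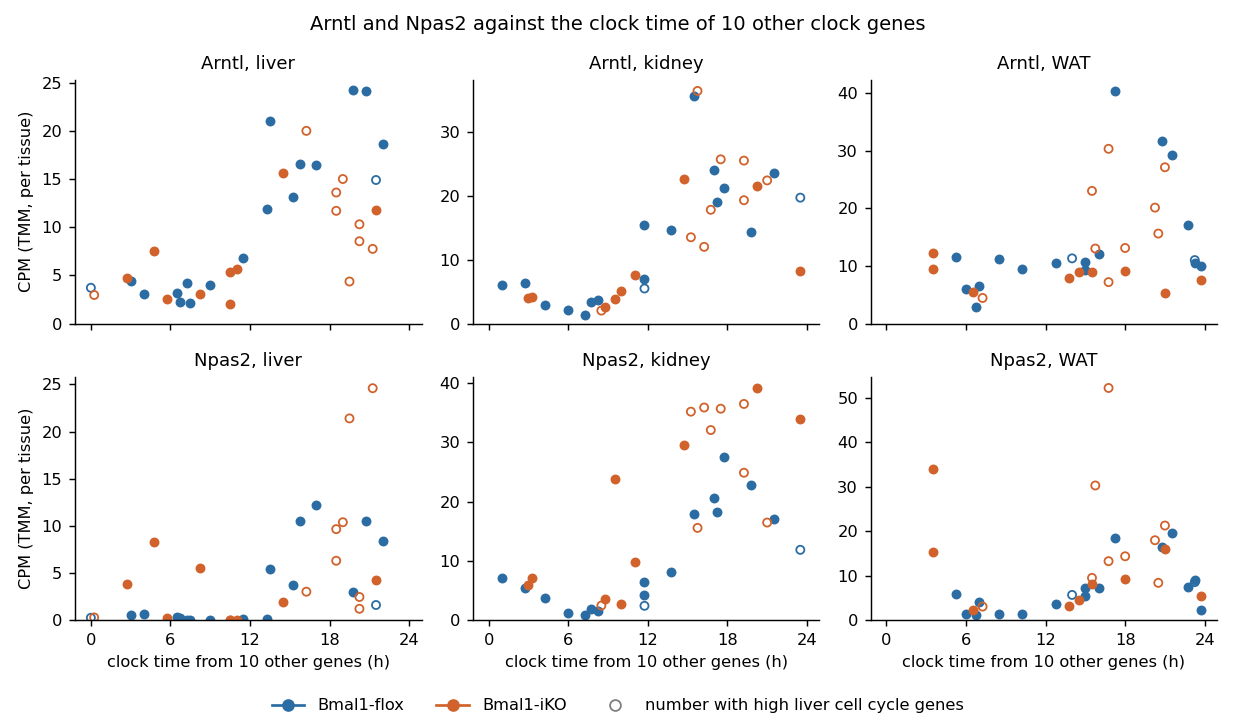
Level of Arntl (top) and Npas2 (bottom) in CPM, axes from 0, against the clock time of 10 other clock genes (h) in each library, by tissue and genotype. Points are single libraries and open symbols are the 11 numbers with high liver cell cycle genes. In kidney the iKO library with 23.8 CPM of Npas2 lies at a clock time of 9.5 h.

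Patterns across the 36 groups, after centring each tissue, were compared with those of 10333 genes, and predicted genes, pseudogenes and clone names among these were passed over in the naming. Among the rest, the pattern of Arntl was most like those of Leo1 (Pearson r = 0.818), Ypel2 (0.802), Nfil3 (0.777), Hba-a1 (0.768) and Hbb-bs (0.763). It was most opposite to those of Nr1d2 (-0.865), Dbp (-0.851), Per3 (-0.788), Tef (-0.757) and Coq10b (-0.743). Npas2 was most like Dtx4 (0.872), Rnf144a (0.762), Ppard (0.746), Cdkn1a (0.744) and Grk5 (0.744), and most opposite to Per3 (-0.816), Nr1d2 (-0.774), Tef (-0.76), Dbp (-0.756) and Usp2 (-0.752). For Clock the highest values were lower, with Lysmd3 (0.637), Crkl (0.618), Palld (0.614), Clic4 (0.587) and Gfod1 (0.585), and the lowest were Camk2b (-0.61), Lpin3 (-0.599), Stxbp2 (-0.598), Pced1b (-0.597) and Eml5 (-0.582). Among the members r was 0.713 for Arntl and Npas2 (0.688 in liver, 0.854 in kidney and 0.62 in WAT), 0.409 for Arntl and Clock and 0.385 for Npas2 and Clock. These are descriptions over groups that share libraries, scaling and time of day.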

How the data were processed

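RNA of liver, kidney and white adipose tissue was extracted with Trizol and sequenced as 150 bp reads from NEBNext Ultra libraries, per the labels' protocols. The authors deposited 1 table of whole-number read counts per gene for all libraries, not normalized. The submitters' processing notes name HISAT2 2.0.4, featureCounts 1.5.0-p3, DESeq2 1.16.1 and GRCm38; settings and strand option: not given in the sources used here. Gene lengths for RPKM are the deposited ones.

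Groups came from the labels. No pair of libraries agreed within sampling noise (all pairs within groups, lowest chi-square per degree of freedom 10.55). Per tissue, counts were filtered with filterByExpr and scaled with TMM, which left 16582 genes in liver, 17630 in kidney and 21402 in WAT. They were fitted in edgeR 4.0.16 (R 4.3.3) with glmQLFit (robust) and glmQLFTest, with 1 mean per genotype and time or, per genotype, a mean with a cosine and a sine of 24 h. The 54 flox libraries were fitted together for tissue differences (21237 genes). Adjustment followed Benjamini and Hochberg, over every gene of a fit. DESeq2 1.42.0, other scalings and filters, a replicate block and each library left out were alternatives. Scripts were tested on simulated data.

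The members and lists were chosen with earlier results of these data known. Named were the members, up to 4 called genes of smallest p per list and comparison, and the 5 genes most and least like each member by Pearson r. In the last of these, predicted genes, pseudogenes and clone names were passed over. Motifs were searched in RefSeq promoters of GRCm38.p6, in which all 3 members were found.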

Additional observations from a re-analysis of the deposited data

Results flagged for a closer look

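The swing of Npas2 over the day differed between flox liver and flox WAT. Its fitted amplitude was 3.36 in liver and 1.11 in WAT on the log2 scale, a difference of 2.25 with a 95% interval of 1.25 to 3.25 (edgeR adjusted p = 0.0324), found by a test of the difference itself in the 54 flox libraries. In liver the fit passes through ZT10, where the 3 flox libraries held 3 reads of Npas2 together, and ZT6, where they held 12. In WAT 13 of 36 libraries held epididymis RNA, 6 of them flox. In those 6 the lowest, median and highest values of Npas2 were 1.36, 4.53 and 8.59 CPM, and in the other 12 flox libraries they were 1.16, 6.61 and 19.7. Without the 13 libraries the difference was still called. It was not called in a fit of all flox and iKO libraries (edgeR adjusted p = 0.122), with library size alone (0.0597) or without liver flox ZT18 number 2 (0.0541).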

How the results depend on the processing

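DESeq2 called Npas2 at ZT6 in liver (5.80) and in kidney (3.75), so that its count of called members at single times was 1 in each of these tissues, where edgeR had 0. It also called the liver average of Npas2 (1.44, adjusted p = 0.0488), the rhythm of Arntl in iKO liver (0.933, 0.0153) and in flox WAT (0.866, 0.0374). Of all genes it called 1609, 213 and 116 in these tests, in the same order. The average of Clock in WAT, 0.00 in the report, was -0.014 with DESeq2, -0.0139 with its size factors, -0.0332 with no filter and -0.242 without the 11 numbers, where the liver averages of Arntl and Clock were 0.0448 and 0.106.

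Arntl for liver minus WAT was 0.379 with size factors (adjusted p = 0.0576), 0.297 with no filter (0.226), 0.405 with all flox and iKO libraries in 1 fit (0.0747), 0.252 without the 13 epididymis libraries (0.316) and -0.679 with library size alone. Library size alone gave -0.289 for Arntl and -0.935 for Clock in liver minus kidney. The distance between the liver and WAT cosines of Npas2, in amplitude and peak at once, was 2.34 in the flox libraries, 2.34 with all flox and iKO libraries in 1 fit (0.122) and 2.31 with library size alone (0.0597). Npas2 rhythm in flox liver was 3.34 with no filter (0.0613). With time as a factor, edgeR called iKO liver rhythm for Arntl (0.927, 0.0235) and Npas2 (3.96, 0.0399), among 1916 genes called, against 14 with the cosine. These values come from the range between the highest and lowest fitted time level and are not cosine amplitudes. At the lowest time of Npas2, ZT10, the 3 iKO libraries held 2 reads. Kidney Npas2 was 1.46 without the pair of Xist numbers (0.058), and 1.45 to 1.87 over 7 alternatives (3.01e-05 to 0.058). The Arntl rhythm in iKO liver was 1.21 without the 3 clock time numbers (0.0123). These sets were chosen after seeing the data, and the cause of each shift was not tested.

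With each library left out in turn, kidney Npas2 ran from 1.28 to 1.59 (called in 33 of 36) and at ZT6 from 3.07 to 4.26, and called members at single times in kidney from 0 to 1. Rhythm amplitude ran from 0.596 to 1.06 for Npas2 in iKO kidney, 3.17 to 3.66 for Npas2 in flox liver and 0.852 to 1.13 for Arntl in iKO liver. Liver minus WAT ran from 2.18 to 2.69 for the Npas2 distance and from 0.353 to 0.513 for the level of Arntl, called in 38 of 54. The averages of Clock ran from -0.104 to 0.00332 in liver and -0.11 to 0.0344 in WAT.

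Libraries of the same replicate number deviated together (r over 0.1) in 6 of 18 pairs in liver, 5 in kidney and 10 in WAT, so the numbers were not taken as pairs. With the replicate number as a block kidney Npas2 was 1.49 (edgeR adjusted p = 0.0312). Between tissues the main fit took libraries of the same number as separate, though they may share an animal. There the block was the genotype, time and number together. Over both kinds of block 68 of 68 values kept direction and call. Of all genes, those called on average in kidney numbered 29, against 203 with DESeq2, 77 without the 11 numbers and 17 without the Xist numbers, and in liver 438, against 1609, 1199 and 159. Depth limits liver Npas2 most, at 2 to 12 reads per group of 3 at its trough.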
